A study of Mus musculus with 16 samples.

Results

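The genes described here are 9 that mark or drive the formation of primitive endoderm: Gata6, Gata4, Sox17, Sox7, Pdgfra, Foxa2, Dab2, Hhex and Cited2. The rule lists them by name and uses no measured value, but the genes were chosen with earlier results of these data known. All 9 were found among the 52636 gene identifiers of the count table. Of these, 12215 identifiers had enough counts to be tested, and they included 3 of the 9: Gata4, Hhex and Cited2. The other 6 were at or near the detection floor, so the data bear on them mainly as upper limits.

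Primitive endoderm is the epithelium that separates from the epiblast inside the blastocyst and later forms the extraembryonic endoderm of the yolk sac. In the embryo, epiblast precursors secrete FGF4, which acts through FGF receptors and the RAS, RAF, MEK and ERK cascade to raise GATA6 and lower NANOG in neighbouring cells, and the transcription factors SOX17, GATA4 and SOX7 follow. Mouse embryonic stem cells correspond to the epiblast side of that choice, and inhibitors of MEK hold them there in culture.

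RNA-seq was performed after removal of ribosomal RNA on CRAFR26 cells, a mouse embryonic stem cell line in which c-RAF, the kinase above MEK and ERK, is switched on by 4-hydroxytamoxifen (4OHT). The 16 libraries form 4 groups of 4, each with 2 replicates of clone 4 and 2 of clone 8. The cells were grown in LIF with the GSK3 inhibitor CHIR99021 and the MEK inhibitor PD0325901. In all groups the MEK inhibitor was then replaced for 48 h by 250 nM of PD173074, an inhibitor of FGF receptors, so signalling from the cells' own FGF4 was inhibited in the controls too. The 0h group received nothing more. The 2h and 4h groups received 250 nM 4OHT for 2 h or 4 h, and the rev group received 4OHT for 4 h and then the MEK inhibitor for 2 h. There was no culture given the solvent alone and none kept for 6 h without MEK inhibitor, so effects of the solvent and of time cannot be told apart from those of c-RAF and of the inhibitor. The labels do not say whether the 2 replicates of a clone were separate cultures, so p-values measure the spread between these libraries, which may in part be technical.

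The libraries held between 2172651 and 12680303 counts (median 6502783). The 8 most abundant gene models took 42.0% to 80.4% of them, on average 60.7% ± 2.39 in 0h, 58.5% ± 4.05 in 2h, 54.1% ± 9.31 in 4h and 65.9% ± 10.6 in rev (SD, n = 4). Values are CPM, counts relative to a library size corrected by TMM factors, which allows for such dominant models. A floor of 3 counts equals 0.213 to 1.35 CPM depending on the library, and covers counting error only. Induction was visible in the ERK target Dusp6, a phosphatase of ERK, at 1.25 ± 0.448 CPM in 0h, 30.2 ± 1.92 in 2h, 55.2 ± 10.7 in 4h and 1.59 ± 0.667 in rev (SD, n = 4). Spry4, an inhibitor of the pathway and another ERK target, stood at 0.998 ± 0.557, 145.8 ± 8.25, 244.8 ± 32.3 and 3.12 ± 1.20 CPM in the same order. In rev Spry4 remained above 0h by 1.69 on the log2 scale (adjusted p = 0.000202, edgeR), whereas Dusp6 was at 0.16 (adjusted p = 0.797, edgeR).

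Per length of exon, Cited2 was the most abundant of the 9 genes, at 11.6 ± 3.61 CPM per kb (SD over all 16 libraries), and Hhex followed at 1.51 ± 0.327 and Gata4 at 0.604 ± 0.137. The ranges of these 3 genes over single libraries did not overlap one another, and the other 6 had lower means. Sox17 had a mean of 0.149 ± 0.0786 CPM per kb, Pdgfra 0.0929 ± 0.0476, Foxa2 0.0749 ± 0.113, Dab2 0.0714 ± 0.0428, Gata6 0.0579 ± 0.0529 and Sox7 0.0228 ± 0.0457. Neighbours in this lower order did not differ beyond their spread. On the same scale Nanog, the epiblast factor opposed to GATA6, stood at 153.8 ± 44.9 and Fgf4, the ligand, at 34.8 ± 13.7, whereas Fgfr2, the receptor enriched in primitive endoderm, stood at 0.107 ± 0.0648. In bulk RNA a few cells with many transcripts and many cells with few cannot be told apart.

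**Figure D1:**
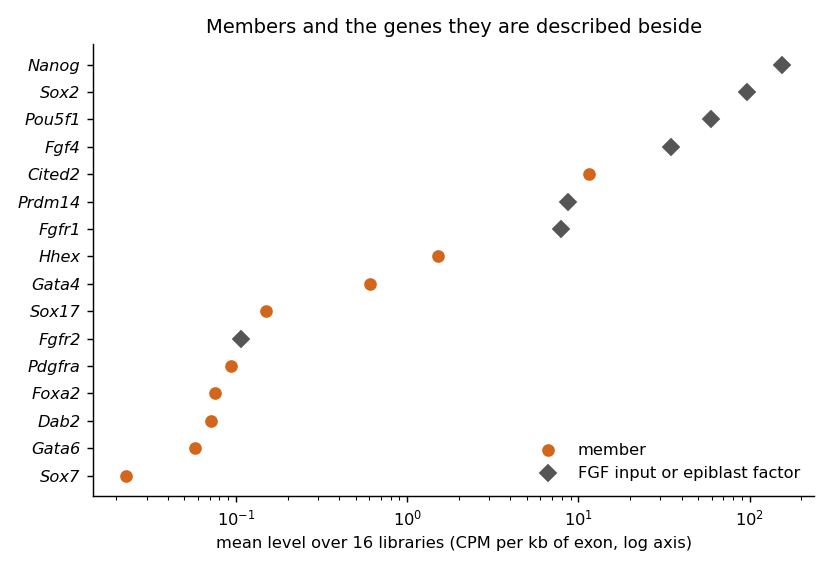
Mean level over the 16 libraries in CPM per kb of exon, on a log axis, for the 9 primitive endoderm genes (circles) and for FGF inputs and epiblast factors (diamonds). Cited2, Hhex and Gata4 lie above the other 6 genes, and Nanog (153.8) and Fgf4 (34.8) lie above all 9.

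Gata6 encodes the GATA factor that stands first in primitive endoderm formation. It lies on chromosome 18 at 11052064 to 11085635 on the plus strand (GRCm38), and 93 bases of its exons overlap the opposite-strand gene 1010001N08Rik. Whether a read there could be assigned depends on the strand setting of the counting, which was not given. All 16 libraries together held 36 Gata6 counts, and no library held more than 4. In the order clone 4 replicates 1 and 2, then clone 8 replicates 1 and 2, the counts were 0, 4, 1 and 2 in 0h and 3, 2, 2 and 2 in 4h. They were 4, 0, 3 and 3 in 2h and 2, 4, 1 and 3 in rev. No group stood apart, and 13 of the 16 libraries were at or under 3 counts. Summed over the libraries of a group and divided by their summed library sizes, Gata6 in 4h was 1.25 times its level in 0h, with a 95% counting interval of 0.414 to 3.95. A rise above that upper bound was outside the counting interval, and a smaller one was not detectable at this depth. Pooled ratios, here and below, take no account of clone, and the clones made up unlike parts of the summed library size in each group.

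Gata4 encodes another GATA factor, which acts after GATA6 and is needed for extraembryonic endoderm (chromosome 14, 63198922 to 63271692, minus strand). In the same library order, it stood at 1.36, 2.24, 3.06 and 3.10 CPM in 0h, from 5, 15, 19 and 29 counts. The 4h libraries had 2.09, 2.22, 3.23 and 2.11 CPM. The 2h libraries had 2.72, 2.63, 1.69 and 2.27, and the rev libraries 1.92, 2.61, 1.82 and 2.70. The 4 groups overlapped, and every library of 2h, 4h and rev lay within the range of 0h except the 3.23 of clone 8 replicate 1 in 4h. The log2 fold change of 4h against 0h was -0.10 (95% interval -0.65 to 0.45, adjusted p = 0.811, edgeR quasi-likelihood test with Benjamini-Hochberg adjustment). For 2h against 0h it was -0.24, with an interval of -0.76 to 0.28. A rise of Gata4 RNA by more than 0.45 on the log2 scale after 4 h lay outside the interval, and a smaller one was not detectable here.

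Sox17 encodes the SOX factor that stabilises primitive endoderm fate (chromosome 1, 4490931 to 4497354, minus strand). It had 78 counts in all, and 804 bases of its exons overlap the opposite-strand model Gm37587. In the same library order the counts were 1, 4, 3 and 7 in 0h and 9, 2, 10 and 15 in 2h, and scaled to library size they came to 0.272, 0.597, 0.482 and 0.748 CPM in 0h and 1.17, 0.876, 0.845 and 1.07 CPM in 2h. Every 2h library lay above every 0h library, yet the counts are small. The pooled level in 2h was 1.73 times that in 0h, with a counting interval of 0.926 to 3.41 that includes no change. The 4h libraries had 3, 3, 7 and 3 counts, or 0.330, 0.351, 1.33 and 0.789 CPM. The rev libraries had 3, 1, 4 and 3 counts, or 0.320, 0.217, 0.663 and 1.35 CPM. The highest single libraries were thus clone 8 libraries of rev (1.35) and 4h (1.33), above each 2h library. The pooled ratio of 4h to 0h was 1.04 (0.480 to 2.25). In a fit without the filter on low counts, 2h against 0h had an adjusted p of 0.407 (edgeR).

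Sox7, a related SOX factor of later primitive endoderm (chromosome 14, 63943673 to 63950732, plus strand), had 7 counts in 16 libraries. All 4 of the 0h libraries were at 0. The upper 95% counting limit over that group was 0.142 CPM, and 3 counts of its pooled library size equal 0.116 CPM. The other libraries held 0, 1, 1 and 0 counts in 2h, 0, 3, 0 and 0 in 4h, and 0, 0, 2 and 0 in rev, in the same order. Sox7 was at the detection floor in each library.

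Foxa2 encodes a forkhead factor of visceral and definitive endoderm (chromosome 2, 148042877 to 148046969, minus strand), and it had 20 counts in all. The 0h libraries held 0, 0, 0 and 1, the 2h libraries 0, 0, 0 and 3, and the 4h libraries 0, 2, 0 and 0. The rev libraries held 8, 3, 2 and 1, or 0.853, 0.652, 0.331 and 0.451 CPM. All 4 rev libraries had counts, whereas 9 of the other 12 were at 0. Pooled, 14 counts in rev against 1 in 0h gave a ratio of 16.3 with a counting interval of 2.49 to 691, and 14 against 2 in 4h gave 8.41 (1.93 to 76.3). These intervals cover counting error only, not the spread between libraries. In the fit without the filter on low counts, Foxa2 had an adjusted p of 0.0305 for rev against 0h and of 0.0567 for rev against 4h (edgeR). Without clone 4 replicate 1 of rev, which held 8 of the 14 counts, the adjusted p for rev against 0h was 0.225, and without clone 4 replicate 2 of rev it was 0.0563. The fitted log2 fold change, which depends on the prior count and is no bound, was 3.39 with all libraries and 3.07 and 3.42 without these. Markers of other cell types also moved in rev against 0h, where 12.4% of all tested genes were called higher and 9.86% lower. All 4 tested trophectoderm markers were higher, as were 2 of 4 neural, 1 of 3 fibroblast and 1 of 8 pluripotency markers. Of the fibroblast markers 1 was lower, and 0 of 4 mesoderm or definitive endoderm markers were called. The part of these markers in the Foxa2 counts was not tested.

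Pdgfra and Dab2 encode surface and adaptor proteins rather than transcription factors. PDGFRA is the receptor for PDGF-A that marks primitive endoderm cells early (chromosome 5, 75152292 to 75198215, plus strand), and DAB2 is the endocytic adaptor that helps place the layer on the blastocoel surface (chromosome 15, 6299788 to 6440712, plus strand). Pdgfra had 97 counts in all, with 6, 4, 8 and 10 in 0h, 7, 0, 7 and 9 in 2h, 5, 7, 6 and 2 in 4h, and 8, 9, 6 and 3 in rev. The groups overlapped. Its pooled level was 0.594 times that of 0h in 2h (0.327 to 1.07), 0.694 times in 4h (0.371 to 1.28) and 1.08 times in rev (0.611 to 1.92). None of these intervals excludes a ratio of 1. Its exons overlap the opposite-strand models Gm42802 over 456 bases and Gm42803 over 166, and the same-strand model Mir7025 over 30.

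Dab2 had 61 counts, with 0, 5, 3 and 4 in 0h, 5, 3, 11 and 10 in 2h, 3, 6, 1 and 1 in 4h, and 4, 2, 2 and 1 in rev. The 2h libraries stood at 0.647, 1.31, 0.929 and 0.710 CPM against 0, 0.746, 0.482 and 0.428 in 0h, so the highest 0h library lay above the lowest pair of 2h. The pooled ratio of 2h to 0h was 1.75 (0.864 to 3.76) and that of 4h to 2h was 0.510 (0.230 to 1.05), and without the filter on low counts 2h against 0h had an adjusted p of 0.408 (edgeR). The mean of Dab2 was highest in 2h (0.900 ± 0.301 CPM against 0.414 ± 0.309 in 0h; SD, n = 4), without passing the test. Of its exons, 211 bases overlap the opposite-strand model Gm18888.

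**Figure D2:**
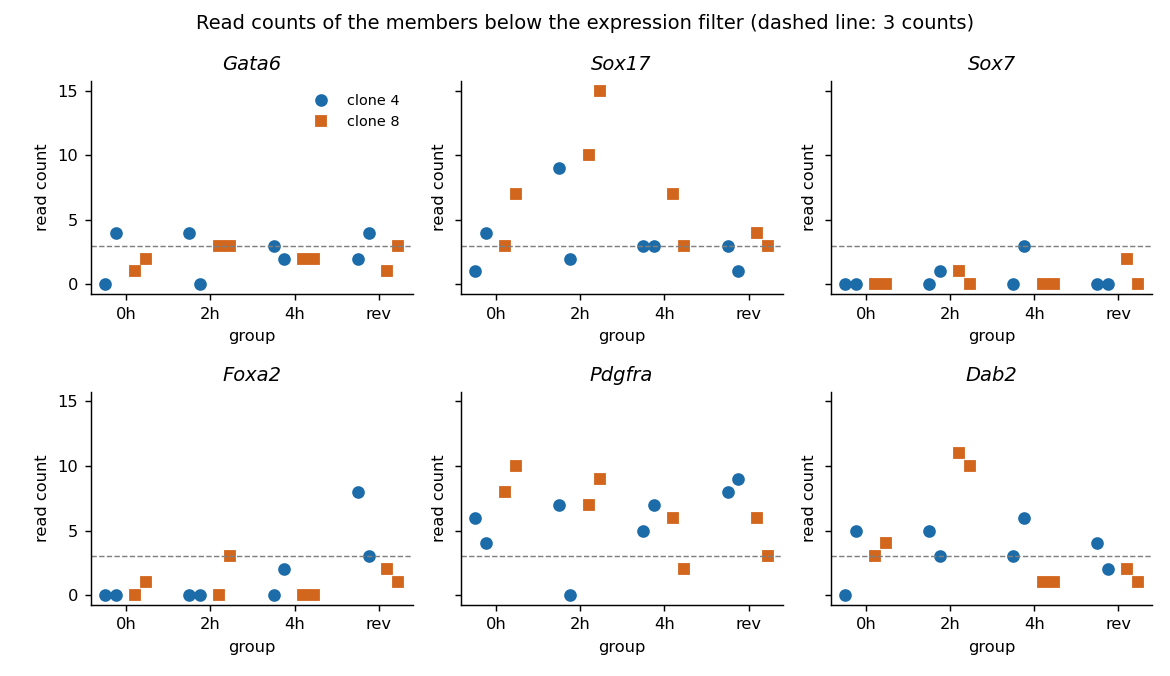
Read counts of the 6 genes below the filter on low counts in each library, by group, with clone 4 as circles, clone 8 as squares and a dashed line at 3 counts. Of the 16 points 13 lie at or under the line for Gata6 and 16 for Sox7, and Foxa2 is above 0 in all 4 libraries only in rev.

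**Figure D3:**
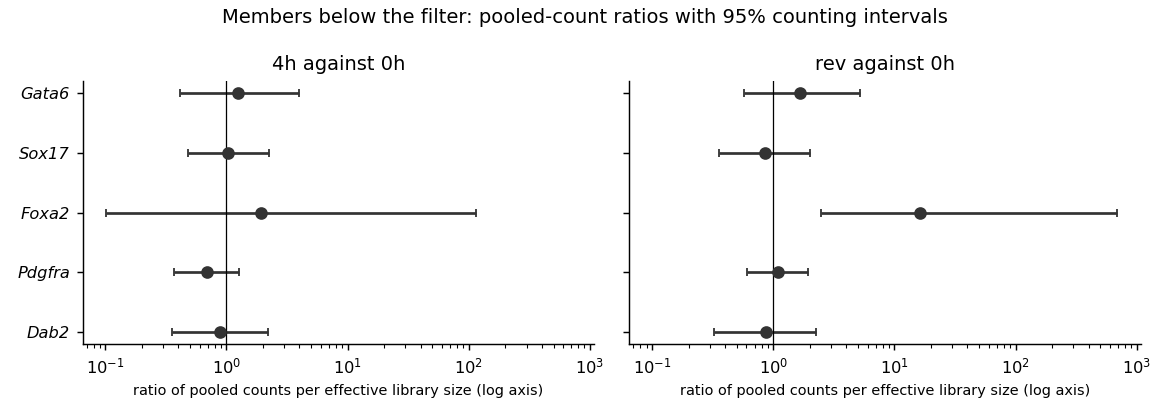
Pooled count ratios with 95% counting intervals, on a log axis, for 5 low genes in 4h against 0h and rev against 0h. All intervals include 1 except that of Foxa2 in rev against 0h (2.49 to 691).

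Hhex and Cited2 are the 2 members with a called change, described next, and the sequence before their start is shown as RefSeq gives it (GRCm38.p6). The windows run from 250 to 51 bases before the RefSeq start, and they were searched on both strands for 3 motifs. The letters CCGGAA stand for the core bound by ETS factors, several of which ERK phosphorylates. The letters TGANTCA stand for the site of AP-1, the dimer of FOS and JUN proteins that ERK signalling induces. The letters AGATAA stand for the site bound by members of the GATA family. Capitals mark the match, here on the minus strand. Cited2 holds 1 ETS core and Hhex holds none of the 3 motifs. Windows were found for 5 of the 9 genes, 8 in all, and among those of genes without a called change by the filtered test Dab2 and Foxa2 each had 1 window with the ETS core, and Foxa2 1 window with the GATA letters. Over 32851 windows of the same length, 8.03% held the ETS core, 5.57% the AP-1 letters and 8.42% the GATA letters.
Cited2, chr10:17722978-17723177, plus strand: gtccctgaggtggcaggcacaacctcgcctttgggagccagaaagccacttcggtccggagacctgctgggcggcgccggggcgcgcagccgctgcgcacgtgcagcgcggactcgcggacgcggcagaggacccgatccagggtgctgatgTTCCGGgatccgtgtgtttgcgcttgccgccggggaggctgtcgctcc
Hhex, chr19:37434591-37434790, plus strand: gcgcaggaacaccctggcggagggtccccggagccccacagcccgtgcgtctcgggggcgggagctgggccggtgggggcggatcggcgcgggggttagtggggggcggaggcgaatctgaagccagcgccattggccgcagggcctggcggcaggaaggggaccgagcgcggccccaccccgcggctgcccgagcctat
G and C made up 71% of the Cited2 window and 77% of the Hhex window. A match is a description of the letters and not a bound site.

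Hhex encodes a homeobox repressor of anterior visceral endoderm and of early endoderm (chromosome 19, 37434810 to 37440731, plus strand), and it rose within 4 h of induction. In 0h it stood at 5.16, 5.07, 6.43 and 7.70 CPM, from 19, 34, 40 and 72 counts, in the order clone 4 replicates 1 and 2, clone 8 replicates 1 and 2. In 4h it stood at 9.35, 7.48, 11.0 and 10.5 CPM, from 85, 64, 58 and 40 counts. Within each clone both 4h libraries lay above both 0h libraries, and over all libraries the only overlap was 7.48 in 4h clone 4 against 7.70 in 0h clone 8. The log2 fold change of 4h against 0h was 0.60 (SE 0.16, 95% interval 0.27 to 0.93, adjusted p = 0.00398, edgeR quasi-likelihood test with Benjamini-Hochberg adjustment). It was the only one of the 3 tested genes called in that comparison, where 17.2% of all tested genes were called higher and 16.8% lower. With library size alone in place of TMM scaling the log2 fold change was 0.72 and its adjusted p 0.083.

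At 2h Hhex stood at 7.64, 8.76, 6.17 and 7.17 CPM, between the other time points in its mean (7.43 ± 1.08, against 6.09 ± 1.24 in 0h and 9.59 ± 1.57 in 4h; SD, n = 4). Both clone 4 libraries of 2h lay above those of 0h, and the clone 8 libraries did not (6.17 and 7.17 against 6.43 and 7.70). The log2 fold change of 2h against 0h was 0.16 (-0.16 to 0.49, adjusted p = 0.568) and that of 4h against 2h was 0.44 (0.13 to 0.75, adjusted p = 0.0743), neither of them called. After 2 h of MEK inhibitor Hhex stood at 7.14, 7.39, 7.95 and 7.21 CPM, the narrowest group (7.42 ± 0.369). The rev libraries lay below the lowest 4h library, which was 7.48, except the 7.95 of clone 8 replicate 1. The change was -0.33 on the log2 scale (-0.655 to -0.005, adjusted p = 0.164), which did not pass the test. Scaled by library size alone it was -0.75 (adjusted p = 0.0408, edgeR), where that scaling set the median of all genes at -0.41. The log2 fold change of rev against 0h was 0.27 (-0.08 to 0.62, adjusted p = 0.272). The comparisons with 0h share the 0h libraries, and those with 4h share the 4h libraries.

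Markers of other cell types moved with the same comparison, in which 17.2% of all tested genes were called higher and 16.8% lower. Hhex is also expressed in definitive endoderm, and of the 8 markers of mesoderm or definitive endoderm examined, 4 were tested, 2 rose in 4h against 0h (T and Eomes) and 1 fell (Gsc). Their summed level ranged from 10.7 to 16.8 CPM in 0h and from 17.6 to 27.1 in 4h, and Cer1 was at 0 in all 16 libraries. Of 8 trophectoderm markers 4 were tested and 3 rose (Cdx2, Gata3 and Tead4), with sums of 14.8 to 35.0 CPM in 0h and 34.1 to 63.4 in 4h. Of 6 neural markers 4 were tested, Pax6 rose by 1.63 on the log2 scale and Tubb3 fell by 0.89, and the sums were 53.4 to 70.1 CPM in 0h and 40.8 to 50.2 in 4h. Of 8 fibroblast markers 3 were tested and 1 fell (Pdgfrb), with sums of 8.36 to 13.04 CPM in 0h and 4.21 to 8.47 in 4h, and Dcn and Postn were at 0 in all libraries. Without the clone term Cdx2 (2.25), Tead4 (0.95), Pax6 (1.90) and Tubb3 (-0.83) lost their calls at these log2 fold changes (adjusted p = 0.0657, 0.126, 0.0643 and 0.109, edgeR). Pax6 also lost its call without clone 4 replicate 2 of 0h (1.17, adjusted p = 0.0658, edgeR), and Gata3 without clone 4 replicate 2 of 4h (0.93, adjusted p = 0.101, edgeR). Of the 8 pluripotency markers, all tested, 4 rose and 4 fell, with sums of 1683 to 2084 CPM in 0h and 1537 to 1974 in 4h. Nanog, Dppa3, Zfp42 and Sox2 among them lost their calls with library size alone (log2 fold changes -0.58, -0.43, 0.50 and 0.48, adjusted p 0.118 to 0.313, edgeR). The part of these markers in the change of Hhex was not tested.

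Cited2 encodes a transcriptional coactivator that binds CBP and p300 and competes with HIF-1 for them (chromosome 10, 17723218 to 17725674, plus strand). It differed mainly between the clones. In 0h it stood at 21.5 and 17.8 CPM in the clone 4 replicates and 36.7 and 34.4 in those of clone 8, from 79, 119, 228 and 322 counts. In 4h it stood at 22.4 and 24.3 in clone 4 and 35.9 and 37.1 in clone 8, and in 2h at 23.8 and 18.8 against 38.2 and 45.4. In rev it stood at 16.5 and 19.8 against 29.7 and 32.0. In each of the 4 groups both clone 8 libraries lay above both clone 4 libraries. The log2 fold change of clone 8 against clone 4 was 0.80 (SE 0.07, 0.66 to 0.94, adjusted p = 4.21e-11, edgeR quasi-likelihood test with Benjamini-Hochberg adjustment). In that comparison 15.4% of tested genes were called higher and 13.7% lower, and Hhex (0.17, -0.07 to 0.40) and Gata4 (0.14, -0.27 to 0.54) were not called.

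Cited2 fell when the MEK inhibitor was added after 4 h of 4OHT. The change of rev against 4h was -0.33 on the log2 scale (SE 0.10, -0.535 to -0.125, adjusted p = 0.021, edgeR), and within each clone both rev libraries lay below both 4h libraries. Without regard to clone the groups overlapped, and a fit without the clone term gave a log2 fold change of -0.31 with an adjusted p of 0.585. In this comparison 7.93% of tested genes were called higher and 8.43% lower. The share of counts in the 8 most abundant models differed between these groups, 54.1% ± 9.31 in 4h against 65.9% ± 10.6 in rev, and with that share as a term the log2 fold change was -0.26 and the adjusted p 0.181. Without clone 4 replicate 2 of 4h the log2 fold change was -0.28 and the adjusted p 0.0799, without clone 4 replicate 1 of rev they were -0.29 and 0.106, and without clone 8 replicate 1 of rev -0.30 and 0.0894. With library size alone the log2 fold change was -0.75 (adjusted p = 0.0235, edgeR), beside the same shift of -0.41 in the median of all genes. During induction Cited2 stood at a log2 fold change of 0.24 in 2h against 0h (0.05 to 0.42, adjusted p = 0.0662) and 0.15 in 4h against 0h (-0.04 to 0.35, adjusted p = 0.225), neither called.

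The marker lists of other cell types moved in both comparisons in which Cited2 was called. In rev against 4h, of the 4 tested mesoderm or definitive endoderm markers T (-1.89) and Eomes (-0.53) fell and Gsc (2.11) rose on the log2 scale, with sums of 17.6 to 27.1 CPM in 4h and 14.1 to 18.1 in rev. Of the 4 tested neural markers Sox1 (0.87), Tubb3 (0.80) and Nes (0.32) rose, with sums of 40.8 to 50.2 CPM in 4h and 63.6 to 70.8 in rev. Of the tested trophectoderm markers 1 rose (Gata2) and 1 fell (Tead4), of the 8 pluripotency markers 4 rose and 3 fell, and the 3 tested fibroblast markers, Col1a1, Thy1 and Pdgfrb, had adjusted p of 0.111 to 0.616 (edgeR). Between the clones, Cdx2 (-2.60), T (-1.75), Pax6 (-1.70), Tubb3 (-1.04) and Pdgfrb (-0.83) were lower in clone 8. Sox1 (1.55), Tead4 (1.36), Gata2 (1.31), Thy1 (0.61) and Nes (0.37) were higher in clone 8, and of the pluripotency markers 4 were higher, Klf4 (0.79) and Nanog (0.66) among them, and 2 lower. Over the 8 libraries of a clone, trophectoderm markers summed to 14.8 to 38.3 CPM in clone 4 and 31.2 to 63.4 in clone 8, neural markers to 49.8 to 70.1 and 40.8 to 70.8, and mesoderm or definitive endoderm markers to 12.1 to 27.1 and 10.6 to 20.9. The part of these markers in the differences of Cited2 was not tested.

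**Figure D4:**
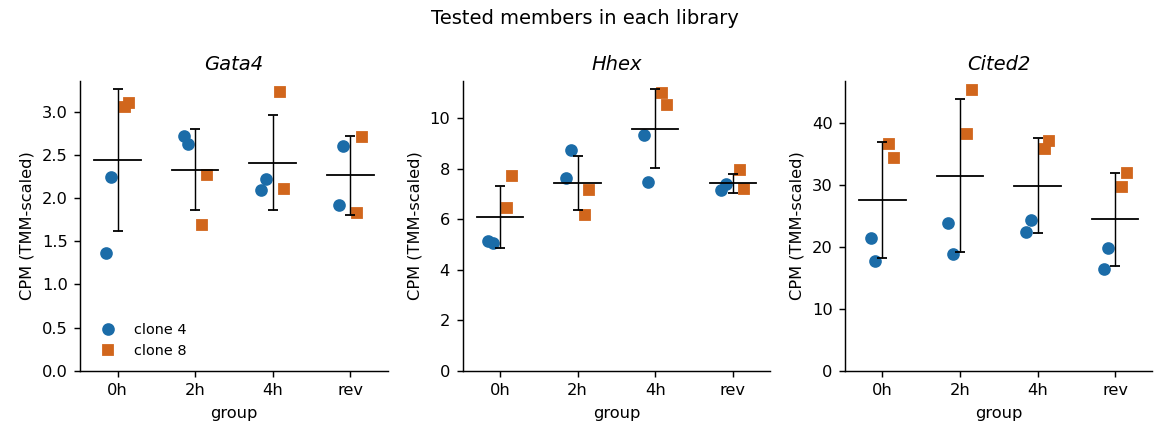
CPM of Gata4, Hhex and Cited2 in each library by group, with clone 4 and clone 8 marked apart and the group mean ± SD. Hhex is highest in 4h (9.59 ± 1.57), Cited2 separates by clone in every group, and the groups of Gata4 overlap.

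Of the 3 tested genes none was called in 2h against 0h, where 11.4% of tested genes were called higher and 9.68% lower. Likewise none was called in 4h against 2h (3.8% higher, 3.52% lower) or in rev against 0h (12.4% higher, 9.86% lower). At an unadjusted p under 0.05, edgeR gave 1 gene in the first (Cited2), 1 in the second (Hhex) and 0 in the third, and DESeq2 also called 0 of the 3 in each. The direction of calls over all genes depended on the scaling: in rev against 4h 48.5% of called genes were higher with TMM scaling and 3.3% with library size alone, in rev against 0h 55.8% and 10.4%, between clones 53.1% and 13.6%, in 4h against 2h 51.9% and 88.0%, and in 4h against 0h 50.6% and 62.9%. Precision differed with abundance: Gata4, the least abundant, had an SE of 0.27 for 4h against 0h and Cited2 one of 0.10.

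**Figure D5:**
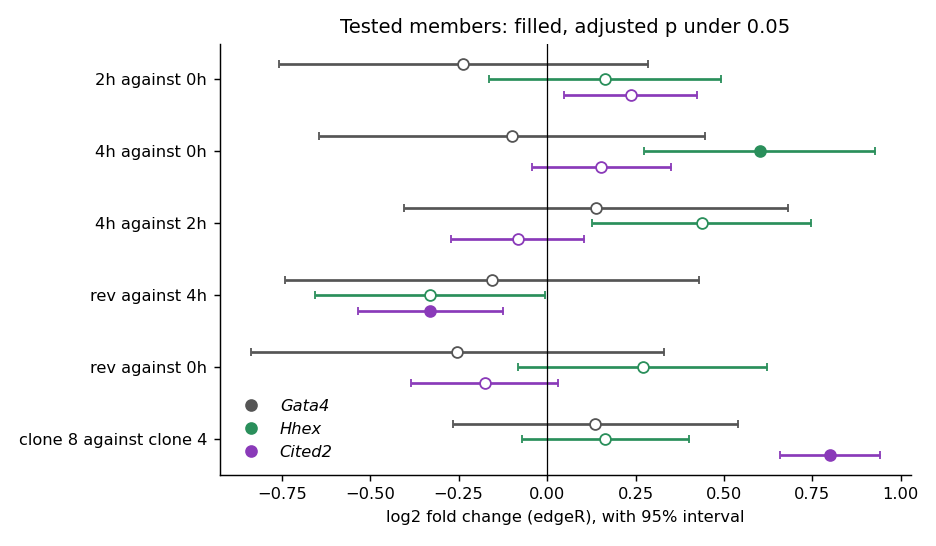
Log2 fold changes of Gata4, Hhex and Cited2 with 95% intervals in the 5 comparisons between groups and between the clones. Filled points passed an adjusted p of 0.05, which are Hhex in 4h against 0h (0.60), Cited2 in rev against 4h (-0.33) and Cited2 between clones (0.80).

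The clones were also compared in their response. None of the 15 differences, 3 genes in 5 comparisons, was called (adjusted p 0.435 to 1, edgeR), and 3 had an unadjusted p under 0.05. Over all tested genes such differences were called for 0.0901% in 2h against 0h, 0.311% in 4h against 0h, 0.0327% in 4h against 2h, 0.00819% in rev against 4h and 0.0573% in rev against 0h. The difference of Hhex in 2h against 0h, clone 8 minus clone 4, was -0.73 on the log2 scale (interval -1.37 to -0.09, adjusted p = 0.435, edgeR). For Gata4 in 2h against 0h it was -1.11 (interval -2.16 to -0.05, adjusted p = 0.476, edgeR).

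Genes with the most similar pattern were those with the highest correlation of log2 CPM over the 16 libraries, after centring on the clone, among genes of at least 5 CPM. For Hhex they were Fubp3 (r = 0.866), Liph (0.863) and Hnrnpd (0.849). For Gata4 they were Strbp (0.865), Fam126a (0.83) and Sumf1 (0.749), and for Cited2 Fbxo46 (0.79), Zfp715 (0.789) and Ranbp9 (0.782). These values are the highest among 8645 or 8646 candidates and share library depth and scaling, so they are descriptions without a test.

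The signal that directs cells to primitive endoderm was examined next. Of 15 genes for FGF ligand, receptors and the cascade to ERK, 13 were tested, and in 4h against 0h 3 fell and 1 rose (median log2 fold change 0.08, against -0.02 over all tested genes), where 17.2% of all tested genes were higher and 16.8% lower, so the share called was near that of all genes. Library size alone left 1 fall and 0 rises. The ligand Fgf4 fell by 1.09 on the log2 scale (SE 0.09, adjusted p = 3.48e-12, edgeR) and its main receptor gene Fgfr1 by 0.37 (adjusted p = 0.000239, edgeR), and both rose in rev against 4h, by 1.45 and 0.60. Under library size alone Fgfr1 had -0.26 in 4h against 0h (adjusted p = 0.586, edgeR) and 0.16 in rev against 4h (adjusted p = 0.606, edgeR), where that scaling set the median of all genes at -0.41. Fgfr2 had a log2 fold change of -1.04 in 4h (SE 0.46, adjusted p = 0.0772, edgeR), from 114 counts in all. Without clone 4 replicate 2 of 4h it was -1.93 (adjusted p = 0.0101, edgeR). Map2k1, the gene for MEK1, fell by 0.26. It had -0.16 with library size alone (adjusted p = 0.768, edgeR), -0.26 without the filter on low counts (adjusted p = 0.0638, edgeR) and -0.21 without clone 8 replicate 1 of 4h (adjusted p = 0.0723, edgeR).

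Of 13 epiblast factors that oppose primitive endoderm, all were tested, 5 rose and 5 fell in 4h against 0h (median 0.04), and 7 rose and 4 fell in rev against 4h (median 0.32, against 0.01 over all genes). Of all tested genes 17.2% were called higher and 16.8% lower in 4h against 0h, and 7.93% and 8.43% in rev against 4h. Nanog, which represses Gata6, stood at 393.5 ± 92.9 CPM in 0h, 343.5 ± 78.6 in 2h, 250.0 ± 78.5 in 4h and 392.5 ± 107.7 in rev. It fell by 0.68 on the log2 scale in 4h against 0h (SE 0.07, adjusted p = 4.03e-09, edgeR) and rose by 0.66 in rev against 4h, so at 4 h Nanog was lower while Gata6 and Gata4 showed no detectable rise. Scaled by library size alone, Nanog had -0.58 in 4h against 0h (adjusted p = 0.118, edgeR) and 0.22 in rev against 4h (adjusted p = 0.464, edgeR), and without the clone term 0.65 in rev against 4h (adjusted p = 0.0905, edgeR). Prdm14, a repressor of FGF signalling and of endoderm genes, fell by 1.27 (adjusted p = 9.95e-10, edgeR) and rose by 1.06 in rev against 4h (0.62 with library size alone, adjusted p = 0.0643, edgeR). Nr0b1, a nuclear receptor that represses endoderm genes, rose by 0.91 in 4h (adjusted p = 1.23e-10, edgeR).

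Of 32 later products and regulators of endoderm, 20 were tested, and in 4h against 0h 2 rose and 2 fell (median -0.04), where 17.2% of all tested genes were higher and 16.8% lower. Library size alone left 1 rise and 0 falls, and with DESeq2 or only the 2 groups in the fit 1 fell. The laminin gene Lamb1 rose by 0.76 and Sparc, a matrix glycoprotein of parietal endoderm, by 0.42, while the laminin gene Lama1 fell by 0.44 and Srgn by 1.04. Srgn lost its call in 6 alternatives (-1.06 to -0.82, adjusted p 0.0504 to 0.224), among them without clone 4 replicate 1 of 0h and without clone 4 replicate 2 or clone 8 replicate 2 of 4h. Lama1 lost its call with library size alone (-0.34, adjusted p = 0.451, edgeR) and without the clone term (-0.48, adjusted p = 0.0796, edgeR). Sparc lost its call in the same fits (0.51, adjusted p = 0.183, and 0.41, adjusted p = 0.0928, edgeR). Between the clones 14 of the 20 were higher in clone 8 and 2 lower (median 0.49, against -0.01 over all genes), against the 15.4% and 13.7% of all tested genes given above. With library size alone, 7 were higher. Krt8 and Krt18, keratins of simple epithelium, were higher in clone 8 by 2.11 and 1.61 on the log2 scale, from only 151 and 120 counts in all. Hnf4a, a regulator of visceral endoderm, was higher by 1.58 from 125 counts, and the collagen IV gene Col4a1 by 1.11 from 490. Fn1, Lamc1 and Nid1, the genes of the list with the most counts, were higher by 0.22, 0.24 and 0.82. Stra6 and Apoe were lower, at -2.63 and -0.54, from 134 and 10771 counts. Markers of trophectoderm (Cdx2, Tead4, Gata2), mesoderm (T) and neural cells (Pax6, Sox1, Tubb3, Nes) also differed between the clones, with the values given beside Cited2, and their part in the list was not tested. Cited2 was higher in the same clone, whereas Gata4 and Hhex were not called between clones.

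Of 21 genes that act with the members, such as cofactors, ligands and related factors, 16 were tested, and 8 rose and 1 fell in 4h against 0h (median 0.32, against -0.02 over all genes), where 17.2% of all tested genes were called higher and 16.8% lower. Pdgfa, the ligand of PDGFRA, rose by 1.10 on the log2 scale (adjusted p = 1.58e-12, edgeR), from a mean of 34.2 CPM in 0h to 73.2 in 4h, whereas Pdgfra itself stayed near the floor. Zfpm2, the cofactor FOG2 that binds GATA factors, rose by 2.72 from at most 5 counts per library in 0h (adjusted p = 4.44e-05, edgeR). Tle4 and Tle1, corepressors that HHEX can recruit, rose by 0.91 and 0.45, and Crebbp and Ep300, the CBP and p300 genes that CITED2 binds, by 0.42 and 0.34. Tle3 (-0.04, adjusted p = 0.719, edgeR) and the FOG1 gene Zfpm1 (0.00, adjusted p = 1, edgeR), relatives in the same list, were not called. Gata3, a GATA factor of trophectoderm and also in the list above, rose by 1.33 (0.93 without clone 4 replicate 2 of 4h, adjusted p = 0.101, edgeR), and Pdgfrb fell by 1.88. With library size alone 4 of the 16 rose, and of the 13 epiblast factors 1 rose and 1 fell. Without the clone term 3 of the epiblast factors fell and 4 rose.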

How the data were processed

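The deposited values were raw counts of reads per gene for 16 libraries, which the file shows as unscaled whole numbers. Demultiplexing with bcl2fastq 2.19.1, alignment with STAR 2.5.3a and the mm10 build are named per the submitters' processing notes, and the counting tool, annotation and strand setting were not given in the sources used here. Symbols, positions and exon lengths were taken from GENCODE M21 by Ensembl identifier.

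Genes were filtered with filterByExpr, scaled by TMM and fitted with edgeR 4.0.16 (limma 3.58.1, R 4.3.3). The quasi-likelihood model held group and clone over all 16 libraries, with two-sided contrasts and Benjamini-Hochberg adjustment over 12215 genes at 0.05. A model of the 8 cells of group and clone gave differences in response between clones. Standard errors came from the fold change and the F statistic, and 95% intervals from the model's degrees of freedom. Ratios of pooled counts have exact conditional binomial intervals, which cover counting error only and take no account of the spread between libraries. The ratios also take no account of clone, and the clones made up unlike parts of the summed library size from group to group. For Cited2, which differed between the clones, the pooled ratio of 4h to 0h was 0.964, while the log2 fold change fitted with clone was 0.15. CPM use the TMM-scaled library size. Of these steps only the main edgeR fit was tried on simulated counts, which held no difference between the clones.

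The members and lists were chosen with earlier results of these data known. All 9 members are named, as are Nanog, Fgf4, Fgfr1 and Fgfr2, and of each list up to 4 genes called in at least 1 of the 5 comparisons between groups, those with the largest absolute change in 4h against 0h first; further list genes (Tle1, Tle3, Tle4, Zfpm1, Crebbp, Ep300, Klf4, Thy1 and those compared between clones) were named after their values were seen. A gene that this rule names is not reported here. Libraries of the same group and clone differed by more than sampling noise (chi-square over degrees of freedom 2.72 to 68.7), so none was merged. Replicate numbers were checked as a pairing by correlating residuals within clone over 6692 genes. The alternatives were library size alone, RLE size factors, no filter, DESeq2 1.42.0, other model terms, a fold threshold and leaving out each library.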

Additional observations from a re-analysis of the deposited data

Results flagged for a closer look

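Among 132 gene and group combinations screened for a single library far from the other 3, 3 were found, where chance flags about 1 in 20. Gata4 stood at 3.23 CPM in clone 8 replicate 1 of 4h, with the other 4h libraries at 2.09 to 2.22. Prdm14 stood at 18.7 CPM in clone 8 replicate 2 of 4h, with the others at 10.8 to 11.6. Zfpm2, the GATA cofactor, stood at 0.876 CPM in clone 4 replicate 2 of 2h, the shallowest library, with the others at 1.63 to 1.69.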

How the results depend on the processing

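The rise of Hhex in 4h against 0h kept its call in 25 of 26 alternatives (log2 fold change 0.52 to 0.74, adjusted p 0.00212 to 0.083, edgeR or DESeq2), and the difference of Cited2 between clones in 22 of 22 (0.55 to 0.82). A threshold of 1 on the absolute log2 fold change left 0 of the 9 genes called in those comparisons and in rev against 4h, and 6 later endoderm genes higher in clone 8. With library size alone 2, Cited2 and Hhex, were called in rev against 4h and 0 in 4h against 0h, 7 later endoderm genes were higher in clone 8, and signs turned for Gata4 in 4h against 0h (0.021) and between clones (-0.087), Hhex in rev against 0h (-0.033) and between clones (-0.103), and Cited2 in 4h against 2h (0.043). That scaling moved the median log2 fold change of all genes to -0.41 in rev against 4h, -0.32 in rev against 0h and -0.26 between clones, from within 0.02 of 0 with TMM. Without the filter on low counts 1 gene, Foxa2, was called in rev against 0h. For rev against 4h, 0 were called without the clone term or with the share of the 8 most abundant models as a term, the latter chosen after seeing the data, as was leaving out rev libraries for Foxa2. With each library left out in turn, 0 to 1 genes were called in 2h against 0h (1, Cited2, without clone 4 replicate 1 of 0h or clone 4 replicate 2 of 2h), 0 to 1 in 4h against 2h (1, Hhex, without clone 4 replicate 2 of 4h), and 0 to 1 also for rev against 4h. Over the same omissions Gata4 ranged from -0.25 to 0.02 in 4h against 0h and from -0.027 to 0.34 in 4h against 2h, and Cited2 from -0.128 to 0.003 in 4h against 2h. The cause was not tested. Residuals of same-numbered libraries correlated at a mean of 0.0086 (12 pairs, -0.288 to 0.182). Among 0h, 2h and 4h the pairs of clone 8 were at 0.182, 0.124 and 0.160, and those of clone 4 at 0.090, -0.288 and -0.152. The mean over both clones therefore cannot decide whether the numbers pair the libraries. The replicate block changed no count of called members, with 1 in 4h against 0h, namely Hhex, 1 in rev against 4h, namely Cited2, and 0 in the other comparisons between groups. Depth limits the 6 low genes, where 3 counts are up to 1.35 CPM.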
